A study of Mus musculus with 6 samples.

Results

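The 4 Hox clusters of the mouse were examined through 35 genes of 33308 in the deposited gene table. They are all rows named Hox with a cluster letter from a to d and a number, and Hoxc13 was left out. Hox genes encode homeodomain transcription factors that give cells their place along the body axis. Within a cluster the low-numbered genes (anterior paralogs) are used from the hindbrain backwards, and the high-numbered genes (posterior paralogs) only in the hind trunk, tail and distal limbs, and genes of the same number in different clusters are called paralogs. Fibroblasts of adult skin keep the Hox pattern of the site where they formed, so the set of paralogs in a skin piece is a record of its position.

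Polyadenylated RNA of mouse skin was sequenced in 3 samples from mice given osimertinib for 42 days (osimertinib 1 to 3) and 3 samples from control mice, labelled untreated (control 1 to 3). Osimertinib blocks the kinase of the epidermal growth factor receptor and is a lung cancer drug, and the study was set up to follow the skin problems it causes. Body site, strain, sex, age and dose are not stated in the labels. Neither is whether each sample is a separate mouse, so the p-values below reflect sample-to-sample spread that may be technical in part.

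Library totals ran from 54112624 to 60719064 counts. Levels below are the deposited FPKM (fragments per kilobase of gene, scaled to the library total), which is a level per length, and a gene is called expressed in a library at an FPKM of at least 1. The skin label fits markers fixed for keratinocytes and fibroblasts: Krt14, the basal keratin, was at 1914 to 3544 FPKM in osimertinib skin and 1365 to 6752 FPKM in control skin, and the collagen gene Col1a1 at 41.6 to 95.9 FPKM in osimertinib skin and 85.2 to 141 FPKM in control skin. The libraries differed in skeletal muscle. All 21 listed muscle markers together took 8.03%, 4.90% and 7.86% of the count in osimertinib 1, 2 and 3, and 5.12%, 15.1% and 0.0363% in control 1, 2 and 3. Control 3 therefore held almost no muscle RNA and control 2 the most, and on the first principal component of all tested genes, with 56.1% of the variance, control 3 lay at 125.7 against −55.1 to 47.4 for the other 5 libraries.

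In all 6 skin samples most of the Hox signal came from the middle of the clusters. Paralogs 6 to 9 supplied 69.6%, 66.7% and 69.0% of the summed Hox FPKM in osimertinib 1, 2 and 3, and 72.5%, 65.9% and 57.9% in control 1, 2 and 3. Paralogs 1 to 5 supplied 27.7%, 31.7% and 27.8% in osimertinib skin, and 25.4%, 30.8% and 40.8% in control skin. Paralogs 10 to 13 never exceeded 3.29%, the value of control 2. No Hoxb gene above Hoxb9 and no Hoxd gene above Hoxd11 had a row, and Hoxc13 was left out, so such genes are not in this share. Control 3 stood apart from the other 5 libraries with the lowest share of paralogs 6 to 9 and the highest share of paralogs 1 to 5. The mean paralog number, weighted by FPKM, was 6.59, 6.21 and 6.61 in osimertinib skin and 6.77, 6.67 and 5.86 in control skin, so the groups overlapped.

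**Figure D1:**
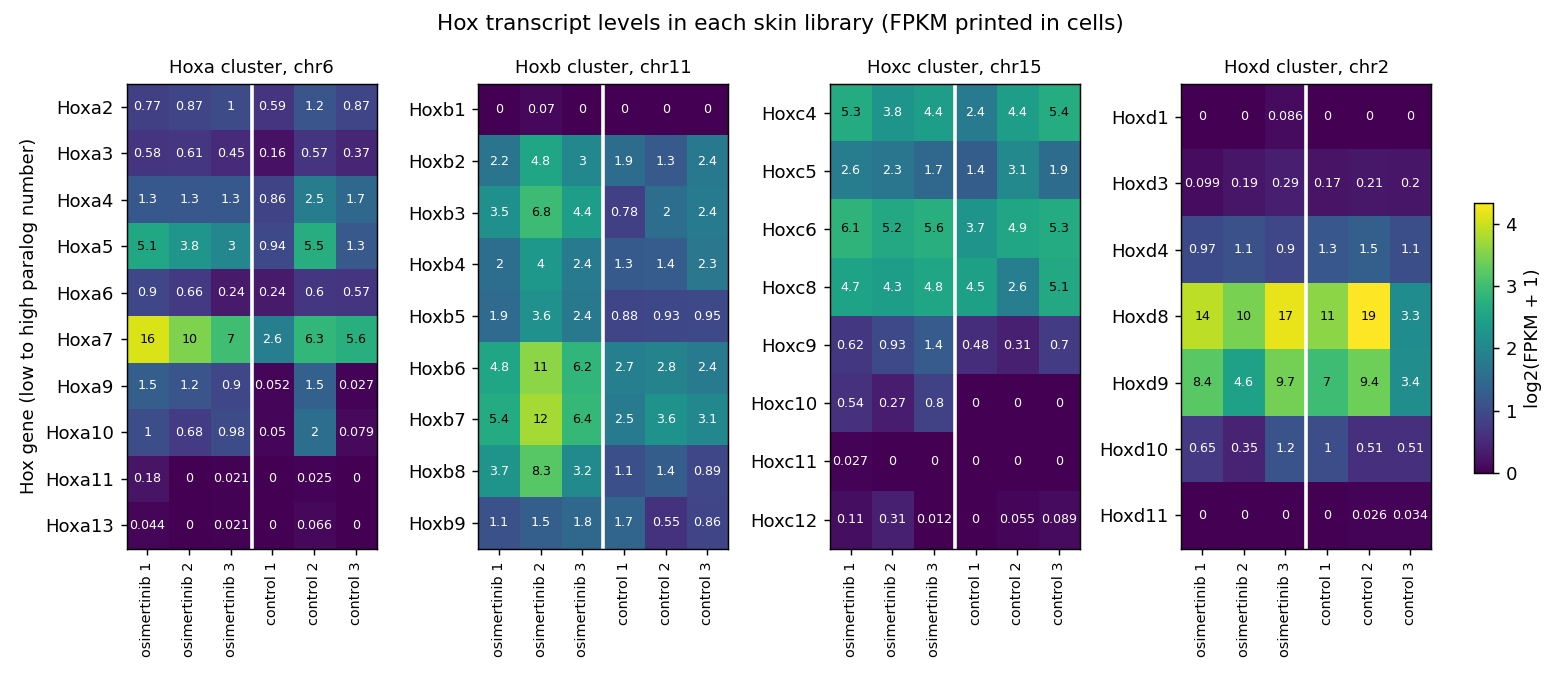
Level of the Hox genes (rows, 1 of the 35 not shown, low to high paralog number within each cluster) in the 6 skin libraries (columns, osimertinib left of the white line and control right of it). Colour is log2(FPKM + 1) and the FPKM is printed in each cell. The highest cell is Hoxd8 in control 2 at 19.2 FPKM, and the posterior ends shown of the Hoxa, Hoxc (without Hoxc13) and Hoxd clusters are dark in all 6 libraries.

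Of the 35 genes, 11 were expressed in all 6 libraries, 24 in at least 1 and 11 in none. Those expressed in all 6 were 1 gene of the Hoxa cluster, 4 of Hoxb, 4 of Hoxc and 2 of Hoxd. Per library, 19, 19 and 20 Hox genes were expressed in osimertinib 1, 2 and 3, and 15, 19 and 16 in control 1, 2 and 3. Among these genes, which leave out Hoxc13, the highest-numbered expressed gene was never above paralog 10. In the Hoxa cluster it was Hoxa10, Hoxa9 and Hoxa7 in osimertinib 1, 2 and 3, and Hoxa7, Hoxa10 and Hoxa7 in control 1, 2 and 3. In the Hoxb cluster it was Hoxb9 in every osimertinib library, and Hoxb9, Hoxb8 and Hoxb7 in the controls. In the Hoxc cluster it was Hoxc8, Hoxc8 and Hoxc9 in osimertinib skin, and Hoxc8 in every control. In the Hoxd cluster it was Hoxd9, Hoxd9 and Hoxd10 in osimertinib skin, and Hoxd10, Hoxd9 and Hoxd9 in control skin.

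The gene with the highest level was not the same in all pieces. It was Hoxa7 in osimertinib 1, Hoxb7 in osimertinib 2 and Hoxd8 in osimertinib 3, and Hoxd8 in control 1, Hoxd8 in control 2 and Hoxa7 in control 3. Summed over the 35 genes, the level was 96.4, 105.6 and 93.5 FPKM in osimertinib 1, 2 and 3, and 51.7, 80.8 and 54.02 FPKM in control 1, 2 and 3. In FPKM, all osimertinib sums lay above all control sums, with control 2 the nearest. FPKM is scaled to the raw library total. The TMM factors, with which edgeR rescales these totals, were 0.981, 1.075 and 1.022 in osimertinib skin, and 1.024, 0.807 and 1.123 in control skin. With these factors control 2 would no longer lie below osimertinib skin, so the separation of the sums holds for FPKM only.

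By correlation the 3 osimertinib libraries were more alike than the 3 control libraries. The control libraries differed from each other about as much as from osimertinib skin. Any 2 osimertinib libraries differed in 2 to 5 genes, counted as expressed in one and not in the other. Any 2 control libraries differed in 5 to 8 genes, and an osimertinib and a control library in 4 to 8. Across the 35 genes, Pearson correlations of log2(FPKM + 1) were 0.925 to 0.958 between osimertinib libraries, 0.811 to 0.876 between control libraries and 0.804 to 0.936 between the groups. Osimertinib 1 and control 2 correlated at 0.936, above the osimertinib pairs at 0.925 and 0.932. These correlations describe likeness across genes of 1 library, which are not independent replicates.

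**Figure D2:**
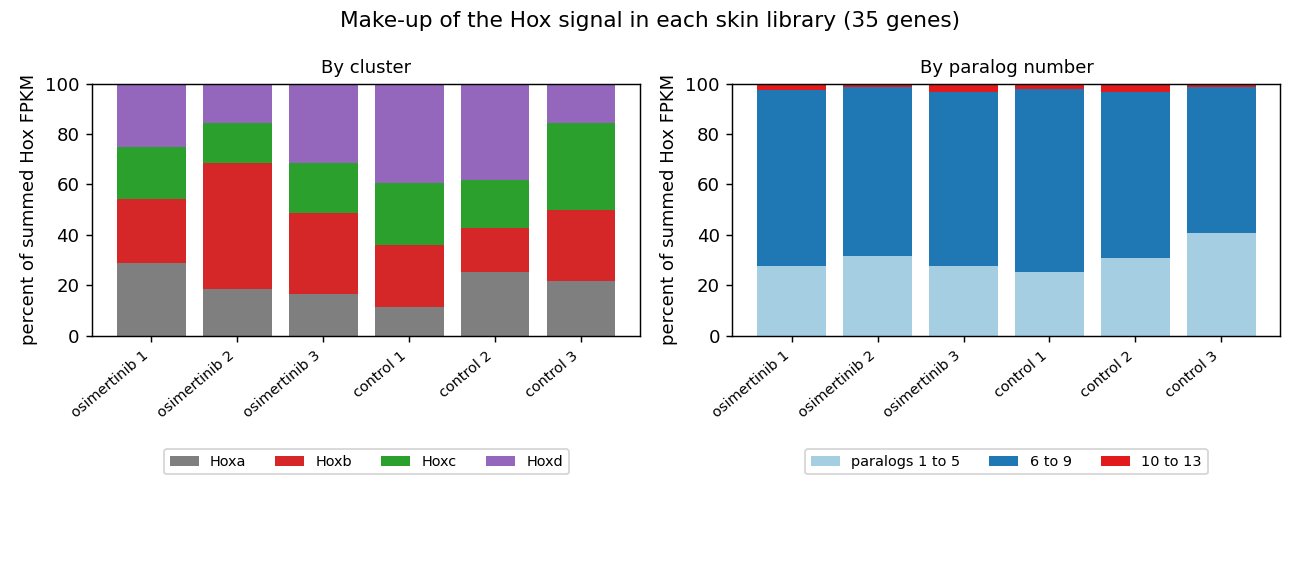
Make-up of the summed FPKM of the 35 Hox genes in each library, in percent, by cluster (left) and by paralog number (right). Paralogs 6 to 9 supply 57.9% to 72.5% in every library, and the Hoxb part is largest in osimertinib 2 with 49.8%.

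Genes of the Hoxb cluster (chromosome 11, 96271457 to 96368256, plus strand, GRCm38) had higher mean levels in osimertinib skin than in control skin. The 9 members with a row are Hoxb1 to Hoxb9, which pattern the hindbrain, neck and thorax of the embryo, and 8 of them had a mean FPKM of at least 1 and were tested. The quasi-likelihood test of edgeR on the deposited counts gave all 8 a log2 fold change above 0 for osimertinib over control, with 1.30 as the median, and positive values were found for 45.3% of all tested genes. None of the 8 passed Benjamini-Hochberg adjustment at 0.05, as 0 of 13498 genes did (0%). At an unadjusted p under 0.05, 6 of the 8 were higher, against 7.22% of all tested genes, and DESeq2 called 3 of them, Hoxb5, Hoxb6 and Hoxb8, as higher, against 3.41% of all tested genes. Hoxb5, counted in both, passed the filter on mean FPKM only through osimertinib skin, so its part in them is a description. More cells that carry a Hox pattern and more Hox RNA per cell cannot be told apart in bulk tissue.

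Hoxb8, a thoracic paralog, had the largest log2 fold change of the tested Hox genes. It was at 3.72, 8.27 and 3.15 FPKM in osimertinib 1, 2 and 3, and at 1.08, 1.42 and 0.885 FPKM in control 1, 2 and 3. Every osimertinib library was above every control, and osimertinib 2 was the highest of all. The log2 fold change was 2.00 ± 0.48 (SE, n = 3 per group, edgeR adjusted p = 0.227), and the adjusted p of DESeq2 was 0.00593. Its neighbour Hoxb7, a thoracic paralog too, was at 5.38, 12.5 and 6.40 FPKM in osimertinib skin, and at 2.46, 3.62 and 3.06 FPKM in control skin. Its groups did not overlap either, and its log2 fold change was 1.26 ± 0.40 (adjusted p = 0.287).

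Hoxb5 and Hoxb6, of the neck and upper thorax, showed the tightest controls of the cluster in FPKM. In TMM-scaled counts the control SD was 1.59 CPM for Hoxb6 and 1.03 CPM for Hoxb2, at similar control means of 6.39 and 7.64 CPM. Hoxb5 was at 1.87, 3.56 and 2.36 FPKM in osimertinib skin, and at 0.883, 0.928 and 0.951 FPKM in control skin, a log2 fold change of 1.38 ± 0.31 (SE, n = 3 per group, edgeR adjusted p = 0.21). Its mean was 2.596 FPKM in osimertinib skin and 0.921 FPKM in control skin, so it passed the filter on mean FPKM only through osimertinib skin. Its fold change and calls are therefore a description. Hoxb6 was at 4.84, 11.03 and 6.24 FPKM in osimertinib skin, and at 2.68, 2.84 and 2.43 FPKM in control skin, a log2 fold change of 1.34 ± 0.35 (edgeR adjusted p = 0.253). In both genes the lowest osimertinib library was above the highest control. DESeq2 gave adjusted p of 0.00526 for Hoxb5 and 0.0286 for Hoxb6. The antisense gene Hoxb5os is annotated over 2786 bases of Hoxb5 and 9094 bases of Hoxb6. It was at 2.96, 5.32 and 1.97 FPKM in osimertinib skin, and at 1.49, 1.33 and 1.06 FPKM in control skin (log2 fold change 1.27 ± 0.45, SE, edgeR adjusted p = 0.317). Whether the authors counted by strand is not stated in the labels, so reads of these genes and of Hoxb5os cannot be told apart.

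At the anterior end of the cluster the groups were closer in some genes and not in others. Hoxb3, which acts in the hindbrain, was at 3.54, 6.82 and 4.37 FPKM in osimertinib skin, and at 0.777, 1.96 and 2.44 FPKM in control skin (log2 fold change 1.39 ± 0.47, SE). Hoxb2 was at 2.18, 4.82 and 3.05 FPKM in osimertinib skin, and at 1.897, 1.31 and 2.38 FPKM in control skin (0.78 ± 0.31). Hoxb4 was at 1.97, 3.99 and 2.44 FPKM in osimertinib skin, and at 1.33, 1.41 and 2.31 FPKM in control skin (0.65 ± 0.33). In FPKM the groups of Hoxb2 and of Hoxb4 overlapped through osimertinib 1 and control 3, while those of Hoxb3 did not. In TMM-scaled counts those of Hoxb2 did not overlap either, with 9.008 CPM in the lowest osimertinib library and 8.692 CPM in the highest control. Hoxb3os, antisense to parts of Hoxb2 and Hoxb3, was at 1.43, 1.34 and 1.51 FPKM in osimertinib skin, and at 3.605, 0.820 and 2.82 FPKM in control skin (−0.77 ± 0.45), so its sign was opposite to that of both genes. Hoxb9, the most posterior tested member, was at 1.10, 1.48 and 1.76 FPKM in osimertinib skin, and at 1.67, 0.552 and 0.863 FPKM in control skin (0.43 ± 0.42), with control 1 inside the osimertinib range. Hoxb1 had counts in osimertinib 2 alone, at 0.0695 FPKM, and was listed at 0 in the other 5 libraries.

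**Figure D3:**
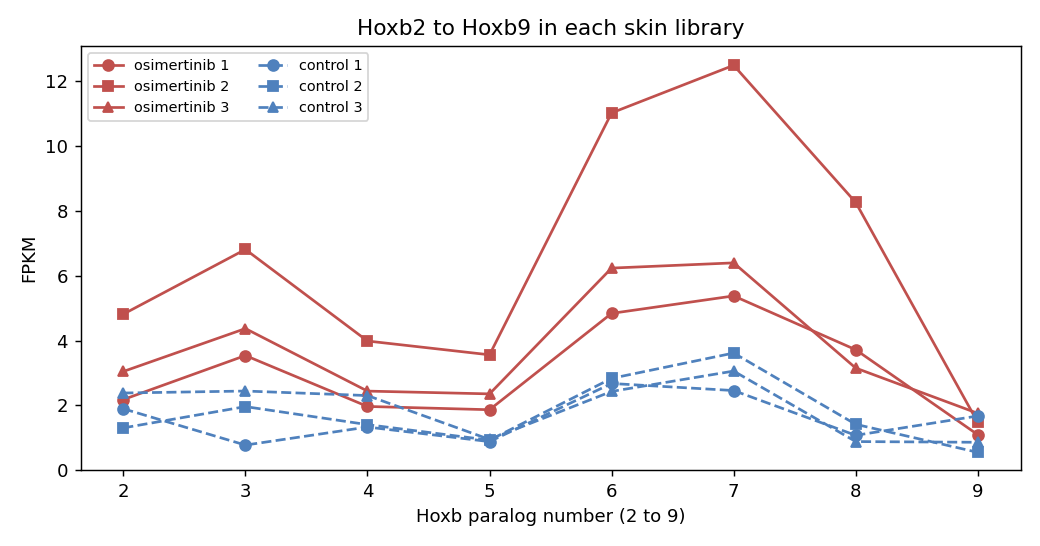
FPKM of Hoxb2 to Hoxb9 (horizontal axis, paralog number) in each library, with osimertinib as solid red lines and control as dashed blue lines. The osimertinib lines lie above the control lines at paralogs 3 and 5 to 8 and cross them at 2, 4 and 9, and osimertinib 2 reaches 12.5 FPKM at Hoxb7.

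The Hoxb cluster supplied 25.5%, 49.8% and 31.8% of the summed Hox FPKM in osimertinib 1, 2 and 3, and 24.7%, 17.4% and 28.4% in control 1, 2 and 3. Within the cluster the weighted paralog number hardly differed, at 5.63, 5.66 and 5.51 in osimertinib skin and 5.70, 5.52 and 5.02 in control skin. Osimertinib 2, the library with the highest level in 7 of the 8 tested genes, also had the most hair shaft RNA. Markers of hair matrix and shaft took 0.106%, 0.523% and 0.0658% of the count in osimertinib 1, 2 and 3, and 0.00194%, 0.0185% and 0.00275% in control 1, 2 and 3, and dermal papilla markers took 0.0191%, 0.0310% and 0.0218% in osimertinib skin, and 0.00865%, 0.00739% and 0.00947% in control skin. Melanocyte markers took 0.0152%, 0.0416% and 0.0128% in osimertinib skin, and 0.00117%, 0.00245% and 0.00151% in control skin. Schwann cell markers were lower, at 0.0128%, 0.00777% and 0.00792% in osimertinib skin, and 0.0215%, 0.0166% and 0.0167% in control skin. In each of these 4 lists the groups did not overlap. The part of these cells in the Hoxb difference was not tested. With a covariate for muscle content the 8 fold changes stayed positive, from 0.34 for Hoxb9 to 1.85 for Hoxb8. The muscle score was −6.38 in control 3 and between 0.525 and 2.59 in the other libraries. The covariate therefore mainly sets control 3 apart, and the part of muscle in the Hoxb difference was not tested. The DESeq2 calls depended on single libraries: 0 Hox genes were called without control 1, against 1.67% of all tested genes called as higher, 1 without osimertinib 2, against 2.32%, and 7 without control 2, against 8.78%.

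Promoters of 3 members are shown here because they stand for the gene with the largest log2 fold change (Hoxb8), a neighbour in the same cluster whose groups overlapped (Hoxb4) and the gene with the highest mean level (Hoxd8). Each runs from 250 bases before to 50 bases after the RefSeq start, and 20 of the 35 genes, with 22 starts, had an entry. Capitals mark matches, on either strand, to TTTATNG (a Hox and Cdx type site), TATAAA (the TATA box) and TGATTNAT (a combined PBX and Hox site). Overlapping matches are merged in the print, as 2 of the TATAAA matches lie within TTTATNG matches.
Hoxb8, chr11:96281655-96281954, plus strand, GRCm38.p6: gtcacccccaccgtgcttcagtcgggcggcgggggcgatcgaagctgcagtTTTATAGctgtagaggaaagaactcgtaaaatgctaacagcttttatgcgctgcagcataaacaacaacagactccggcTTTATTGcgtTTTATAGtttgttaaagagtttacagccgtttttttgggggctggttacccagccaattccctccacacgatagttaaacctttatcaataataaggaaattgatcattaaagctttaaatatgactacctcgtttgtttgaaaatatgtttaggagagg
Hoxb4, chr11:96318017-96318316, plus strand, GRCm38.p6: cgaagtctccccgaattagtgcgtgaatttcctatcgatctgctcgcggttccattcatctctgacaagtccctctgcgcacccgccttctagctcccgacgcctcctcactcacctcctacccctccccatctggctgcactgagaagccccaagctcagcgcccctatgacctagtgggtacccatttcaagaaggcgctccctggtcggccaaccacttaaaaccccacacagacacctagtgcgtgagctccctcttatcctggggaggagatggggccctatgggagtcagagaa
Hoxd8, chr2:74704365-74704664, plus strand, GRCm38.p6: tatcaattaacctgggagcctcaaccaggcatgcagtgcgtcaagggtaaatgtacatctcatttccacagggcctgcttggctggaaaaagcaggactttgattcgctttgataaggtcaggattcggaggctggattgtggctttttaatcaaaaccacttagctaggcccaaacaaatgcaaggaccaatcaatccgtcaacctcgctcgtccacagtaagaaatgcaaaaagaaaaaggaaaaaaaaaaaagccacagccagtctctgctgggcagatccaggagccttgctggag
The Hoxb8 window holds 5 matches, 3 of TTTATNG and 2 of TATAAA, and neither the Hoxb4 nor the Hoxd8 window holds any. The Hoxd4 window, not shown, holds 4 matches, and the log2 fold change of Hoxd4 was −0.47. TTTATNG occurs in 10.8% of 32544 mouse promoters of the same length, TATAAA in 13.6% and TGATTNAT in 3.23%. Of the 22 Hox promoters, 2 hold TTTATNG, 3 hold TATAAA and 2 hold TGATTNAT. Hoxb8 is also the poorest in G and C of the 3 windows shown, at 42.3%, with 58% in Hoxb4, 46.7% in Hoxd8 and a median of 53% over all promoters. These matches are a description of the letters and say nothing about binding in skin.

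The Hoxa cluster (chromosome 6, 52155590 to 52260880, minus strand) was carried by Hoxa7 and Hoxa5. Hoxa7, a thoracic paralog, was at 16.0, 10.3 and 7.01 FPKM in osimertinib 1, 2 and 3, and at 2.64, 6.28 and 5.59 FPKM in control 1, 2 and 3. All osimertinib libraries lay above all controls in FPKM, and the groups overlapped once counts were scaled with TMM factors. The log2 fold change was 1.07 ± 0.49 (SE, n = 3 per group, edgeR adjusted p = 0.394). Hoxa5, which patterns the neck and the lung, was at 5.09, 3.81 and 3.01 FPKM in osimertinib skin, and at 0.941, 5.49 and 1.32 FPKM in control skin. Control 2 was the highest of all and the other two controls the lowest, and the log2 fold change was 0.38 ± 0.80, which was −0.05 without control 1, −0.03 without control 3 and 1.88 without control 2. Hoxa4 was at 1.29, 1.26 and 1.29 FPKM in osimertinib skin, and at 0.858, 2.52 and 1.75 FPKM in control skin (−0.57 ± 0.50, and 0.06 without control 2).

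The posterior Hoxa genes were nearly silent in 2 of the 3 controls. Hoxa9 (chromosome 6, 52223100 to 52231089), of the lower thorax, had 571, 478 and 355 counts in osimertinib 1, 2 and 3, and 19, 561 and 11 counts in control 1, 2 and 3. In FPKM it was at 1.47, 1.22 and 0.899 in osimertinib skin, and at 0.0517, 1.505 and 0.0274 in control skin. Control 2 was as high as the osimertinib libraries and held 54.9 times the level of control 3 and 29.1 times that of control 1. Hoxa10 (52231197 to 52240795), its posterior neighbour, which acts in the lumbar region and the thigh, followed the same pattern. It had 237, 156 and 228 counts in osimertinib skin, and 11, 432 and 18 counts in control skin, which makes control 2 39.6 times as high as control 1 in FPKM. The exact 95% Poisson interval of the Hoxa10 count, which covers counting error only, was 392.2 to 474.7 in control 2 and 10.7 to 28.4 in control 3. Between the groups an exact two-sided permutation test gave p = 0.4 for Hoxa9 and p = 1 for Hoxa10, and 3 libraries against 3 cannot reach a p below 0.1.

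Hoxc10 was found in all osimertinib libraries and in no control. This gene (chromosome 15, 102966796 to 102971893) acts in the lumbar spine and the hindlimb. It had 72, 37 and 109 counts in osimertinib 1, 2 and 3, which is 0.540, 0.274 and 0.801 FPKM, and 0, 0 and 0 counts in control 1, 2 and 3. Counts of 0 allow up to 3 counts over the control group, or 0.0178 CPM (counts scaled to the library total), a limit that covers counting error only. Pooled, the osimertinib libraries held 218 counts of 181027822, and the controls 0 of 168026891, so Hoxc10 was at least 67.4-fold higher in osimertinib skin against that floor. With 0 counts in every control and counts in every osimertinib library, the exact two-sided permutation test could only give its smallest p, 0.1. This p and the fold are therefore a description. Among 25182 genes with at least 10 counts over the 6 libraries, DESeq2 called 2.44% as higher. Hoxc10 was one of them, but it passed this filter only through osimertinib skin and so had to differ, and its call is given as a description. Counts of 0 in all controls together with at least 10 counts in every osimertinib library were found for 22 of these 25182 genes (0.0874%), and counts of 0 in all controls alone for 2.12%. The first of these patterns is that of Hoxc10 itself, so the shares only describe how common it is. Hoxc5 is annotated over 4451 bases of Hoxc10 on the same strand, and how the authors divided such reads is not stated in the labels.

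**Figure D4:**
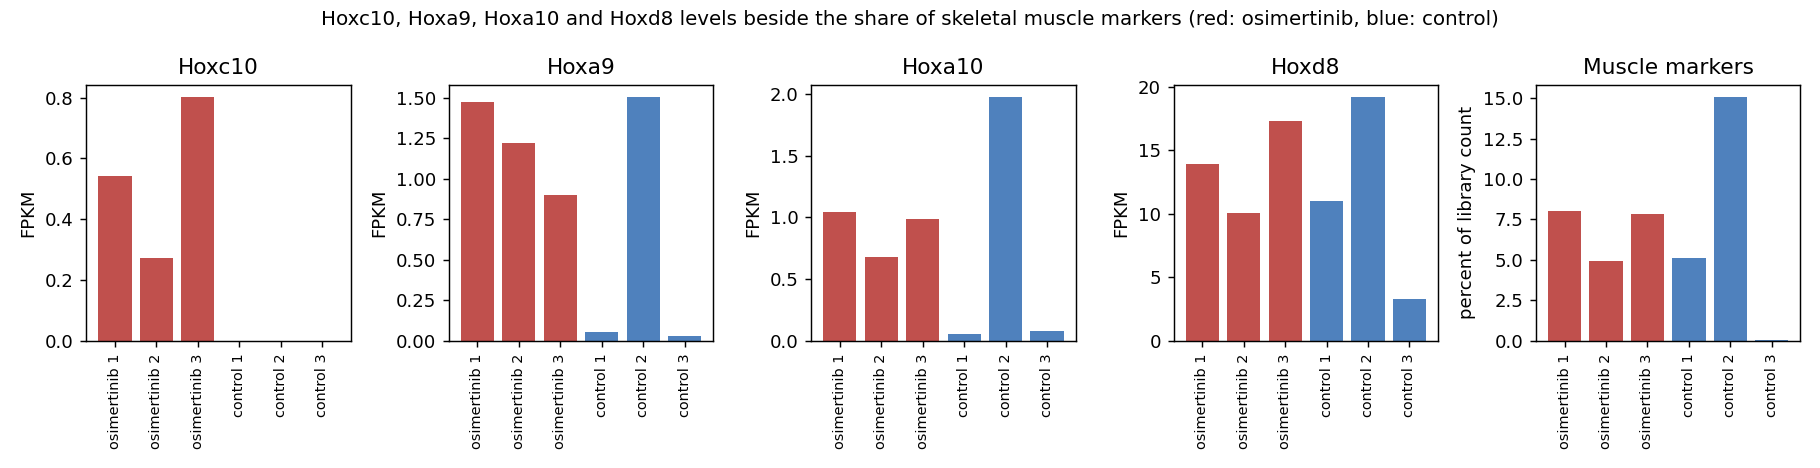
FPKM of Hoxc10, Hoxa9, Hoxa10 and Hoxd8 in each library (osimertinib red, control blue), with the percent of the library count in 21 skeletal muscle markers at the right. Hoxc10 is at 0 in the 3 controls. Control 2 is the highest library for Hoxa9, Hoxa10 and Hoxd8 and has the most muscle. Control 3 is the lowest for Hoxa9 and Hoxd8 and has the least. Control 1, with 5.12% muscle counts, is near 0 for Hoxa9 (0.0517 FPKM), the lowest for Hoxa10 (0.0499 FPKM) and at 11.02 FPKM for Hoxd8.

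Part of this order was shared with muscle content. Control 2, with 15.1% muscle counts, had the highest Hoxa10, and control 3, with 0.0363%, had the lowest Hoxa9 and Hoxd8. Osimertinib 2, with 4.90% muscle counts, had 156 Hoxa10 counts, and control 1, with 5.12%, had 11. The part of muscle in these levels was not tested.

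The other Hoxa members were low. Hoxa2 was at 0.774, 0.871 and 1.02 FPKM in osimertinib skin, and at 0.590, 1.20 and 0.871 FPKM in control skin. Hoxa3 and Hoxa6 were between 0.155 and 0.900 FPKM in the 6 libraries. Hoxa3 is annotated across Hoxa4, Hoxa5 and Hoxa6 on the same strand, and Hoxd3 across Hoxd4, so the split of reads among them is uncertain. Hoxa11 and Hoxa13, which pattern the distal limb and the tail end, were at most at 0.177 and 0.0661 FPKM. In each osimertinib library these genes lay below Hoxa5 and Hoxa7.

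The Hoxc cluster (chromosome 15, 102936757 to 103036852, plus strand) was the most even across libraries. Hoxc6, of the thorax and the region of the forelimb, was at 6.06, 5.17 and 5.57 FPKM in osimertinib 1, 2 and 3, and at 3.72, 4.87 and 5.34 FPKM in control 1, 2 and 3. Hoxc8, a thoracic paralog, was at 4.69, 4.32 and 4.82 FPKM in osimertinib skin, and at 4.49, 2.63 and 5.11 FPKM in control skin. In both genes the groups overlapped, with log2 fold changes of 0.17 ± 0.24 and 0.13 ± 0.21 (SE, n = 3 per group, edgeR adjusted p = 0.829 and 0.854). Hoxc4 was at 5.34, 3.75 and 4.37 FPKM in osimertinib skin, and at 2.45, 4.39 and 5.45 FPKM in control skin (0.04 ± 0.36). Hoxc5, whose annotated span covers several neighbours, was at 2.59, 2.27 and 1.72 FPKM in osimertinib skin, and at 1.42, 3.13 and 1.89 FPKM in control skin (−0.13 ± 0.44). The signs of Hoxc4 and Hoxc5 turned when single libraries were left out.

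Above Hoxc8 the level fell steeply along the members of the cluster, from which Hoxc13 was left out. Hoxc9 was at 0.622, 0.932 and 1.36 FPKM in osimertinib skin, and at 0.475, 0.308 and 0.700 FPKM in control skin, and osimertinib 1 and control 3 overlapped. In TMM-scaled counts they did not, at 1.805 CPM in osimertinib 1 and 1.791 CPM in control 3. In the fit over genes with at least 10 counts its log2 fold change was 0.94 ± 0.40 (SE, n = 3 per group, edgeR adjusted p = 0.443). Hoxc11 had reads in osimertinib 1 alone, at 0.0268 FPKM. Hoxc12 was at 0.113, 0.309 and 0.0117 FPKM in osimertinib skin, and at 0, 0.0548 and 0.0891 FPKM in control skin.

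The Hoxd cluster (chromosome 2, 74679557 to 74765142, plus strand) held the highest mean level, that of Hoxd8 (74704615 to 74707933), a paralog of the trunk. Hoxd8 was at 13.9, 10.03 and 17.3 FPKM in osimertinib 1, 2 and 3, and at 11.02, 19.2 and 3.31 FPKM in control 1, 2 and 3. Hoxd9, of the lower trunk and limbs, was at 8.38, 4.62 and 9.74 FPKM in osimertinib skin, and at 6.97, 9.45 and 3.36 FPKM in control skin. Control 3 was the lowest library for both genes, 5.79 times below control 2 for Hoxd8 and 2.81 times for Hoxd9. Between the groups the log2 fold changes were 0.10 ± 0.69 and 0.04 ± 0.54 (SE, n = 3 per group, edgeR adjusted p = 0.981 and 0.989). Their signs turned with the muscle score as a covariate, to −0.19 and −0.25, and without control 3, to −0.39 and −0.34.

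The remaining Hoxd genes were low in every library. Hoxd4, of the neck, was at 0.971, 1.11 and 0.897 FPKM in osimertinib skin, and at 1.25, 1.47 and 1.06 FPKM in control skin (log2 fold change −0.47 ± 0.33, SE). Its mean was 0.993 FPKM in osimertinib skin and 1.26 FPKM in control skin. It thus passed the filter on mean FPKM only through control skin, and its fold change is a description. Hoxd10 was at 0.651, 0.349 and 1.16 FPKM in osimertinib skin, and at 1.04, 0.513 and 0.512 FPKM in control skin. Hoxd3 was between 0.0992 and 0.290 FPKM in the 6 libraries. Hoxd1 had reads in osimertinib 3 alone, at 0.0857 FPKM. Hoxd11, the most posterior Hoxd gene in the table, had 0, 0 and 0 counts in osimertinib skin, and 0, 8 and 11 counts in control skin.

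**Figure D5:**
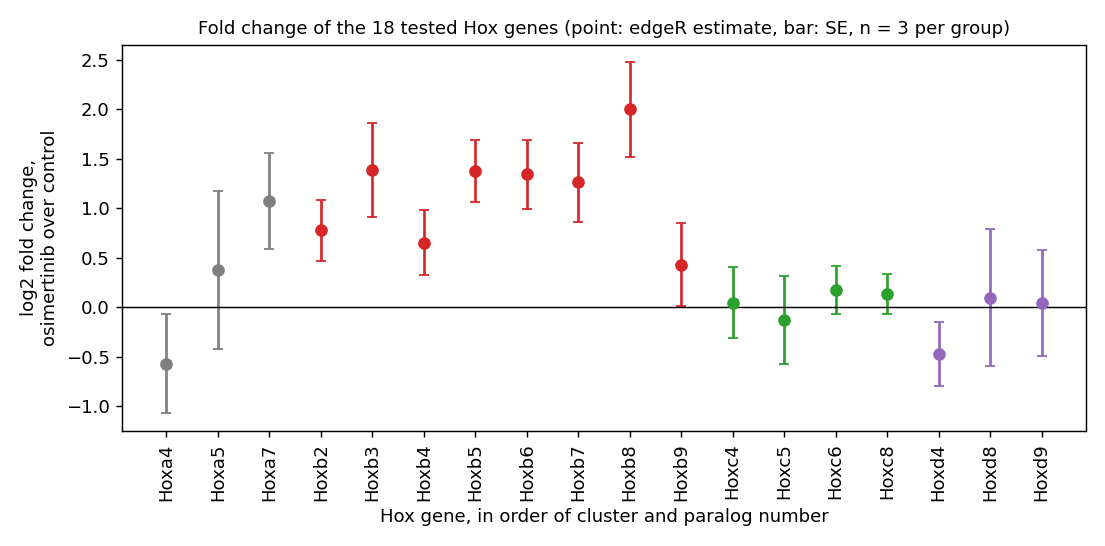
Log2 fold change of osimertinib over control (vertical axis, edgeR estimate with SE as bars, n = 3 per group) for the 18 tested Hox genes in order of cluster and paralog number. All 8 Hoxb genes lie above 0, with Hoxb8 highest at 2.00, and the Hoxc and Hoxd genes lie between −0.47 and 0.17.

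Over the 18 tested Hox genes, 15 log2 fold changes were positive and the median was 0.40, against −0.05 over all 13498 tested genes, of which 14.7% lay above the Hox median. By cluster the medians were 0.38 for 3 Hoxa genes, 1.30 for 8 Hoxb genes, 0.09 for 4 Hoxc genes and 0.04 for 3 Hoxd genes. In FPKM, 7 of the 35 genes had every osimertinib library above every control, and 0 the opposite, which held for 4.07% of all tested genes. The 7 were Hoxa7, 5 Hoxb genes and Hoxc10, and among the tested genes this held for 6 of 18, against 11.5% of all tested genes. In TMM-scaled counts it also held for 6 of the 18, with Hoxb2 in and Hoxa7 out, against 11.3% of all tested genes. Hoxb5, among the 6 on both scales, passed the filter on mean FPKM only through osimertinib skin. The median of the 18 was 0.70 without control 2, 0.25 without control 3 and 0.63 with limma on log2(FPKM + 0.1), a scale that moved the median of all genes by 0.14.

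Other genes of position were read beside the Hox genes. Tbx15, a T-box factor of dorsal trunk skin, was at 24.4, 15.8 and 38.8 FPKM in osimertinib skin, and at 22.4, 43.5 and 2.48 FPKM in control skin. The hindlimb factors Tbx4 and Pitx1 were low: Tbx4 was at 0.765, 0.514 and 0.650 FPKM in osimertinib skin, and at 0.339, 0.980 and 0 FPKM in control skin, and Pitx1 at 0.525, 0.458 and 0.770 FPKM in osimertinib skin, and at 0.152, 0.984 and 0.0212 FPKM in control skin. For all of these control 2 was the highest control and control 3 the lowest, as for Hoxd8 and Hoxd9. The forelimb factor Tbx5 was between 0.177 and 0.362 FPKM in osimertinib skin, and between 0.199 and 0.647 FPKM in control skin. En1, a factor of ventral limb skin, was between 0.436 and 0.751 FPKM in osimertinib skin, and between 0.237 and 0.612 FPKM in control skin, and the dorsal limb factor Lmx1b was below 0.4 FPKM in all 6 libraries.

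Of the 18 listed factors of limb and trunk position 7 were tested, with 3 higher and 4 lower by sign and a median log2 fold change of −0.02. In edgeR 0 passed, and 1, Prrx2, was higher at an unadjusted p under 0.05 and by DESeq2. Over all tested genes these shares were 7.22% and 3.41%. Prrx2, a homeobox gene of limb mesenchyme and dermis, was at 2.27, 1.40 and 3.71 FPKM in osimertinib skin, and at 0.990, 0.784 and 0.643 FPKM in control skin (1.501 ± 0.46, SE, n = 3 per group, edgeR adjusted p = 0.282). It passed the filter on mean FPKM only through osimertinib skin, with a mean of 2.459 FPKM there and 0.8055 FPKM in control skin, so these values too are a description. Tbx3 (−0.24 ± 0.18), Prrx1 (−0.14 ± 0.33) and Shox2 (0.12 ± 0.42) did not pass in edgeR or DESeq2. Alx4, a homeobox gene of limb and skull mesenchyme, was picked out after its values were seen, and was at 0.885, 1.45 and 1.05 FPKM in osimertinib skin, and at 0.104, 0.201 and 0.114 FPKM in control skin.

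Factors of the head and face were mostly low, and 4 of 14 were tested. Dlx1, a homeobox gene of the jaw, was at 0.920, 4.71 and 1.68 FPKM in osimertinib skin, and at 0.133, 0.267 and 0.266 FPKM in control skin (log2 fold change 3.29 ± 0.69, SE, n = 3 per group, edgeR adjusted p = 0.193). Its neighbour Dlx2 was at 2.08, 9.18 and 4.26 FPKM in osimertinib skin, and at 1.41, 0.597 and 1.55 FPKM in control skin (2.07 ± 0.56, edgeR adjusted p = 0.258). DESeq2 called both as higher, against 3.41% of all tested genes, and osimertinib 2 was the highest for both. Dlx1 passed the filter on mean FPKM only through osimertinib skin, with a mean of 2.434 FPKM there and 0.222 FPKM in control skin, so its fold change and call are a description. Dlx5 went the other way by sign (−1.19 ± 0.52).

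Hox proteins bind DNA together with PBX and MEIS proteins. Of 9 listed cofactors 5 were tested and 0 passed in edgeR or DESeq2, 1 with a positive and 4 with a negative log2 fold change, and 0 had an unadjusted p under 0.05 in edgeR. Over all tested genes 14% had such a p in either direction, and DESeq2 called 6.36%. Pbx2 was at 10.9, 18.04 and 14.1 FPKM in osimertinib skin, and at 10.3, 8.16 and 12.3 FPKM in control skin (0.41 ± 0.19, SE, n = 3 per group), with overlapping groups. Meis3 (−0.62 ± 0.31) and Pknox2 (−0.27 ± 0.65) had a negative sign.

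Of the regulators that switch Hox genes on in the embryo, 4 were tested and 0 passed in edgeR. DESeq2 called 2 as higher, against 3.41% of all tested genes. The retinoic acid receptor Rara was at 5.36, 6.78 and 5.82 FPKM in osimertinib skin, and at 4.37, 2.67 and 4.89 FPKM in control skin (log2 fold change 0.53 ± 0.17, SE, n = 3 per group, edgeR adjusted p = 0.294, DESeq2 adjusted p = 0.0417). Gdf11 (0.87 ± 0.95) and Rarg (−0.28 ± 0.33) were within their errors.

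Polycomb and trithorax proteins keep Hox genes off or on through chromatin. Of 25 listed genes 24 were tested, 17 of them positive by sign, and the median log2 fold change was 0.13. In edgeR 0 passed, 2 were higher and 3 lower at an unadjusted p under 0.05, against 14% of all tested genes in either direction, and DESeq2 called 1 as higher and 2 as lower, against 6.36%. Ezh1, a methyltransferase of the repressive complex, was at 5.74, 6.11 and 5.55 FPKM in osimertinib skin, and at 8.87, 6.41 and 10.5 FPKM in control skin (−0.63 ± 0.14, SE, edgeR adjusted p = 0.207, DESeq2 adjusted p = 3.38e-05). Cbx7, a chromodomain reader of its mark, was at 4.39, 4.75 and 4.68 FPKM in osimertinib skin, and at 6.93, 4.65 and 7.63 FPKM in control skin (−0.54 ± 0.14, DESeq2 adjusted p = 0.000571). Every osimertinib library was below every control for Ezh1, and the groups of Cbx7 overlapped in FPKM. Mtf2, which helps to recruit the complex, had a log2 fold change of 0.58 ± 0.17 (DESeq2 adjusted p = 0.0171), and Suz12, a core subunit, one of 0.45 ± 0.15 (DESeq2 adjusted p = 0.13).

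Noncoding RNAs of the clusters were mostly at low levels. Of 14 such genes with a row, 5 were tested, 0 passed in edgeR or DESeq2, and 1, Hoxb5os, was positive by sign, while the median over the 5 was −0.59. Over all tested genes DESeq2 called 6.36%. Hotairm1, a long noncoding RNA of the Hoxa cluster, was at 2.37, 1.98 and 4.001 FPKM in osimertinib skin, and at 4.05, 2.59 and 5.69 FPKM in control skin (−0.59 ± 0.38, SE, n = 3 per group). Mir196a-1, a microRNA gene of the Hoxb cluster, rested on 7, 6 and 6 counts in osimertinib skin, and 20, 12 and 17 counts in control skin (−1.51 ± 0.32, edgeR adjusted p = 0.2, DESeq2 adjusted p = 0.259). Its mean was 0.832 FPKM in osimertinib skin and 2.35 FPKM in control skin. It thus passed the filter on mean FPKM only through control skin, and its fold change is a description. Of the homeobox genes beside the clusters, Evx1 had reads in osimertinib 2 alone, at 0.0187 FPKM.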

How the data were processed

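Per the labels' protocols, polyadenylated RNA was made into dUTP-marked libraries whose adapters held molecular identifiers, then read from both ends. Per the submitters' processing notes, cutadapt 1.9 and build GRCm38 were used. The aligner, the counter and any use of strand or identifiers: not given in the sources used here. The deposited values are raw whole-number counts and, beside them, FPKM that the authors computed. Another 6 value columns fit no sample here and were left out. Groups came from the sample titles and treatment labels.

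Hox genes were taken by name, and the members, lists and tests were chosen with earlier results of these data known. The 13498 genes whose FPKM averaged 1 or more over the 6 libraries entered the quasi-likelihood test (edgeR 4.0.16, R 4.3.3) on the counts, TMM-scaled and without covariates. It was two-sided, with p-values adjusted after Benjamini-Hochberg over all 13498 and a threshold of 0.05. SE is the log2 fold change over the square root of F. Members below the filter are given as values. Alternatives were DESeq2 1.42.0, limma 3.58.1 on log2(FPKM + 1) and log2(FPKM + 0.1), other scalings and filters, a muscle covariate, a replicate block and leaving out each library. The edgeR fit was tested on simulated data. The rule for names took every Hox gene with a mean FPKM of at least 1, those expressed in any library, the smallest p of the unfiltered fit and the highest-numbered members, and of each other list up to 4 genes with the smallest p and 6 genes of body regions. Shares of counts have 95% Wilson intervals of at most 8.11% of the value to either side, for counting error only. Certain genes that this rule names are left out of the text.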

Additional observations from a re-analysis of the deposited data

How the results depend on the processing

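Over all tested genes edgeR called 0, with 1883 at an unadjusted p under 0.05. DESeq2 called 858, limma on log2(FPKM + 1) 17, limma on log2(FPKM + 0.1) 2, and edgeR with the muscle score 1. The other scalings and filters run in edgeR left both counts of calls at 0. DESeq2 with at least 10 counts and no FPKM filter, chosen after seeing the data like the DESeq2 fits without single libraries, called 1062. Without single libraries the count was 0 in edgeR. In DESeq2 it was 1047, 564 and 627 without osimertinib 1, 2 and 3, and 368, 2385 and 1013 without control 1, 2 and 3, so 0 to 2385 in all. Of the Hox genes edgeR called 0, DESeq2 3, DESeq2 with at least 10 counts 4 (Hoxb5, Hoxb6, Hoxb8 and Hoxc10), and 0 to 7 were called without single libraries. Hoxb5 passed the filter on mean FPKM, and Hoxc10 the filter on counts, only through osimertinib skin. The median of the tested Hox genes ran from 0.25 to 0.70 without single libraries, beside an SD of 0.26 between libraries. The sign reversed for Hoxa4 (−0.92 to 0.060 without single libraries), Hoxa5 (−0.051 to 1.88), Hoxc4 (−0.24 to 0.28), Hoxc5 (−0.39 to 0.47), Hoxd8 (−0.39 to 1.002) and Hoxd9 (−0.34 to 0.62). It reversed for Hoxc5 also with limma on log2(FPKM + 1) (0.047) and log2(FPKM + 0.1) (0.080), and for Hoxd8 (−0.19) and Hoxd9 (−0.25) with the muscle score; the cause was not tested. The Hoxb fold changes stayed positive, at 0.24 or more, in the alternatives that were run with a value for each gene.

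Same-numbered libraries of the groups correlated at 0.22, 0.03 and −0.11 in their deviations from the group means. Differently numbered ones correlated at −0.278 to 0.107. With 3 libraries per group this cannot decide whether the numbers pair the samples. With a replicate block 0 genes were called, 0 Hox genes among them, and the median of the 18 tested Hox genes was 0.58. Shares and weighted paralog numbers per library rest on 1 piece of skin each, and genes near 0 on a few counts.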
